A study of Mus musculus with 20 samples.

Results

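The arrays of the last sampled part of a glutamine experiment, 1 of time point 10 and 1 of time point 11, were compared with the 4 arrays of the time points before them, 2 of time point 8 and 2 of time point 9. They are 6 of the 20 arrays of the series, and were chosen by the time point in their titles. The cells were Hepa1-6, a single established mouse hepatoma line, grown in 25 mM glucose. On every array, RNA of flasks whose glutamine was varied, labelled with Cy5, was hybridised together with RNA of flasks held at 4 mM glutamine, labelled with Cy3. Glutamine in the varied flasks alternated between 0 and 4 mM, with exchanges at the start and after 24, 48 and 72 h of the 96 h that were followed. Neither the hour of a numbered time point nor the glutamine level at it is stated, so the comparison is between positions in the series and not between glutamine levels. What an r in a title marks, a repeat hybridisation or another flask, is not given either, so the spread behind the p-values may be technical. A second array of time point 10 was left out. Its values repeat, with 0.31 on 331 spots and 16.92 on 111 as deposited, and its correlation with the 6 arrays over spots lay between -0.0346 and -0.00227.

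Each value was taken as a log2 ratio of the varied flask over the constant flask, minus the median of its array. Base and direction are assumed and not stated. The direction follows the varied RNA being listed as the first channel, and no check of the base is given here. A difference between time points can come from the RNA of either flask. No array had its dyes swapped, although a dye bias that stays constant over arrays cancels in a difference between time points. A ratio holds no level of a transcript, so the identity of the cells could not be checked on these arrays. Of 18 hepatocyte markers on the array, 5 had enough values to be tested.

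As background, glutamine feeds the tricarboxylic acid cycle with carbon and supplies nitrogen for nucleotides and other amino acids. Cells short of an amino acid slow translation and make more of the transcription factor ATF4, whose targets include the stress factor Ddit3 (CHOP). A load of unfolded proteins in the endoplasmic reticulum raises the chaperone Hspa5 (BiP) through elements in its promoter, and also raises Ddit3. Oxygen sensing uses a separate switch: the prolyl hydroxylase Egln1 marks hypoxia-inducible factors for breakdown and is itself a target of these factors.

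The promoters of these 3 genes are shown because Hspa5 and Ddit3 were among the genes called between the arrays of time points 11 and 10, and Egln1 among those called between time point 10 and time points 8-9. They run from 250 bases before to 50 bases after the start of the gene and come from RefSeq on GRCm38.p6, at chr2:34771840-34772139 on the plus strand (Hspa5), chr10:127290543-127290842 on the plus strand (Ddit3) and chr8:124949205-124949504 on the minus strand (Egln1). Capitals mark CCAAT, 9 bases and CCACG in Hspa5, CCAAT read on the other strand in Ddit3, and ACGTG, the core of a hypoxia response element, in Egln1.
Hspa5: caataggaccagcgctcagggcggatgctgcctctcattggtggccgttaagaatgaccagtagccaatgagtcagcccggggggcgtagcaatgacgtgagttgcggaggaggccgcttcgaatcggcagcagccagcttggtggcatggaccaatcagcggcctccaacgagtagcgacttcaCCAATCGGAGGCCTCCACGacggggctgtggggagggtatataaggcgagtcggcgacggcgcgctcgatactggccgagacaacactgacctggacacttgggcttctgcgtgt
Ddit3: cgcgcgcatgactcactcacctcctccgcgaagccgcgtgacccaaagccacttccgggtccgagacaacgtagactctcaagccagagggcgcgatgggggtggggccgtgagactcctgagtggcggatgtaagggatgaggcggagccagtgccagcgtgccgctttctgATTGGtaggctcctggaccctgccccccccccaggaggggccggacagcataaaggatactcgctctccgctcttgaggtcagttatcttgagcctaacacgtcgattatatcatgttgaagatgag
Egln1: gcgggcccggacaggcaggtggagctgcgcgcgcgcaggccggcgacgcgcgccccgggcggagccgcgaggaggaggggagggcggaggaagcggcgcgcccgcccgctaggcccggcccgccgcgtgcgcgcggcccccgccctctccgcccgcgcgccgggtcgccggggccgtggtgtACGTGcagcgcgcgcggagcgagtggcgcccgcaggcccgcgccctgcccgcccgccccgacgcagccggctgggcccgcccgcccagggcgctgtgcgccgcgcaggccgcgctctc
The spaced motif, known as the endoplasmic reticulum stress element, stood at bases 186 to 204 of the Hspa5 promoter and was held by 39 of 32851 promoters (0.119%), counting both strands. CCAAT alone was held by 37.4% of the promoters, CCACG alone by 32.8% and ACGTG by 19.6%. ACGTG also occurred at bases 96 to 100 in Hspa5 and, on the other strand, at bases 272 to 276 in Ddit3, and CCACG on the other strand at bases 175 to 179 in Egln1, so that a match here describes letters only. In Hspa5, CCAAT also occurred outside the spaced motif, at bases 65 to 69 and 153 to 157 and, on the other strand, at bases 37 to 41.

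The 6 arrays gave between 4269 and 8269 values each, which is 24.7% to 47.9% of 17280 probes, and correlated with each other at 0.312 to 0.612 over shared spots. Values on both arrays of time points 10-11 and on 3 or more of time points 8-9 were available for 3264 genes. The array of time point 10 spread more widely than the others. Over the tested genes its SD was 0.39, against 0.30 on the array of time point 11 and 0.26, 0.28, 0.30 and 0.26 on the arrays of time points 8 and 9. Values also depended on the place of a spot. Blocks of 540 consecutive probe numbers held between 3.33% and 20.4% of the variance of an array.

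**Figure D1:**
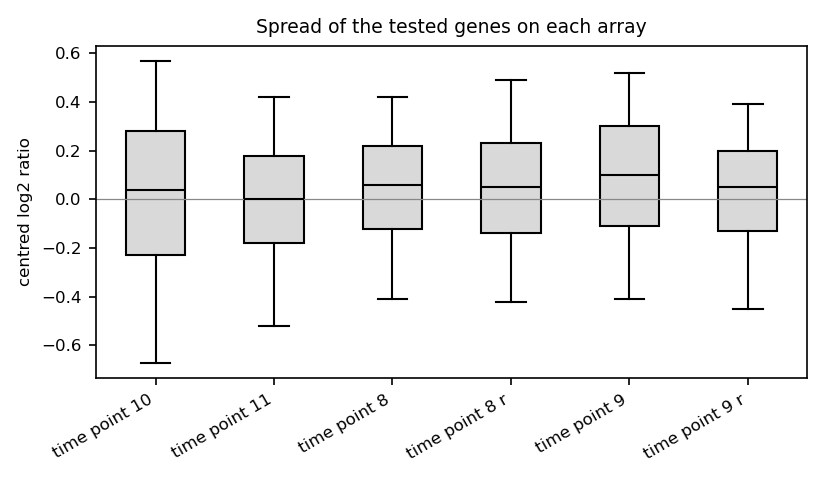
Centred log2 ratios of the tested genes on each of the 6 arrays; boxes show quartiles and the median, whiskers the 5th and 95th percentiles. The whiskers of time point 10 run from -0.67 to 0.57, wider than those of time point 11 (-0.52 to 0.42).

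Between time points 10-11 and time points 8-9, 9 genes were lower and none was higher at an adjusted p under 0.05 (limma, Benjamini-Hochberg over 3264 genes). These are 0.276% and 0% of the genes tested. At an unadjusted p under 0.05, 360 genes were lower (11%) and 138 higher (4.23%), and 56.5% of all genes differed by less than 0. Both arrays of time points 10-11 lay below all arrays of 8-9 in 498 genes (15.3%) and above them all in 327 (10%). The median difference over all genes was -0.04.

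The lowest gene was Nol3, a repressor of apoptosis. It stood at -1.31 and -1.16 on the arrays of time points 10 and 11, against -0.09 and 0.67 on those of time point 8 and -0.54 and -0.36 on those of 9. Both later arrays lay below the 4 earlier ones, which themselves spread widely. The difference was -1.16 (SE 0.23), with a limma adjusted p of 0.0387. Egln1 read -1.18 at time point 10 and -0.20 at time point 11, against 0.14 and 0.21 on the arrays of time point 8 and 0.36 and 0.45 on those of 9. The array of time point 10 carried most of this difference of -0.98 (SE 0.20; limma adjusted p 0.0426). Dip2c was alike in this respect, at -1.25 and -0.53 at time points 10 and 11, against 0.14, 0.02, -0.11 and 0.24 at time points 8-9, a difference of -0.96 (SE 0.18; limma adjusted p 0.0387).

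The other 6 called genes have varied roles. Nmrk2, a kinase that makes the NAD precursor nicotinamide mononucleotide, stood at -0.80 and -0.51 at time points 10 and 11, against 0.24, 0.60, 0.10 and 0.08 at time points 8-9. Wnt9b, a secreted Wnt ligand, stood at -0.92 and -0.48, against 0.29, 0.37, 0.01 and -0.03. In both genes all later values were negative. Kcnip4, a calcium-binding subunit of potassium channels, stood at -1.23 and -0.84 at time points 10 and 11, against -0.23, 0.05, -0.19 and -0.38 at time points 8-9. Espn, which bundles actin, stood at -0.41 and -0.47, against 0.30, 0.48 and 0.28, with 1 earlier array blank. Cd96, a receptor known from T cells and natural killer cells, stood at -0.57 and -0.26, against 0.27, 0.33, 0.38 and 0.26. Naming required both later arrays to lie below all earlier ones, as they did in 15.3% of all genes. Pus3, a pseudouridine synthase that modifies transfer RNA, read -0.52 and -0.65 at time points 10 and 11, against 0.09, 0.23, 0.29 and -0.04 at time points 8-9. A second Pus3 probe entered only 2 of these averages, 1 at time point 8 and 1 at time point 9. The differences of these 6 genes ranged from -0.91 to -0.73, with limma adjusted p of 0.0387 to 0.0483.

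**Figure D2:**
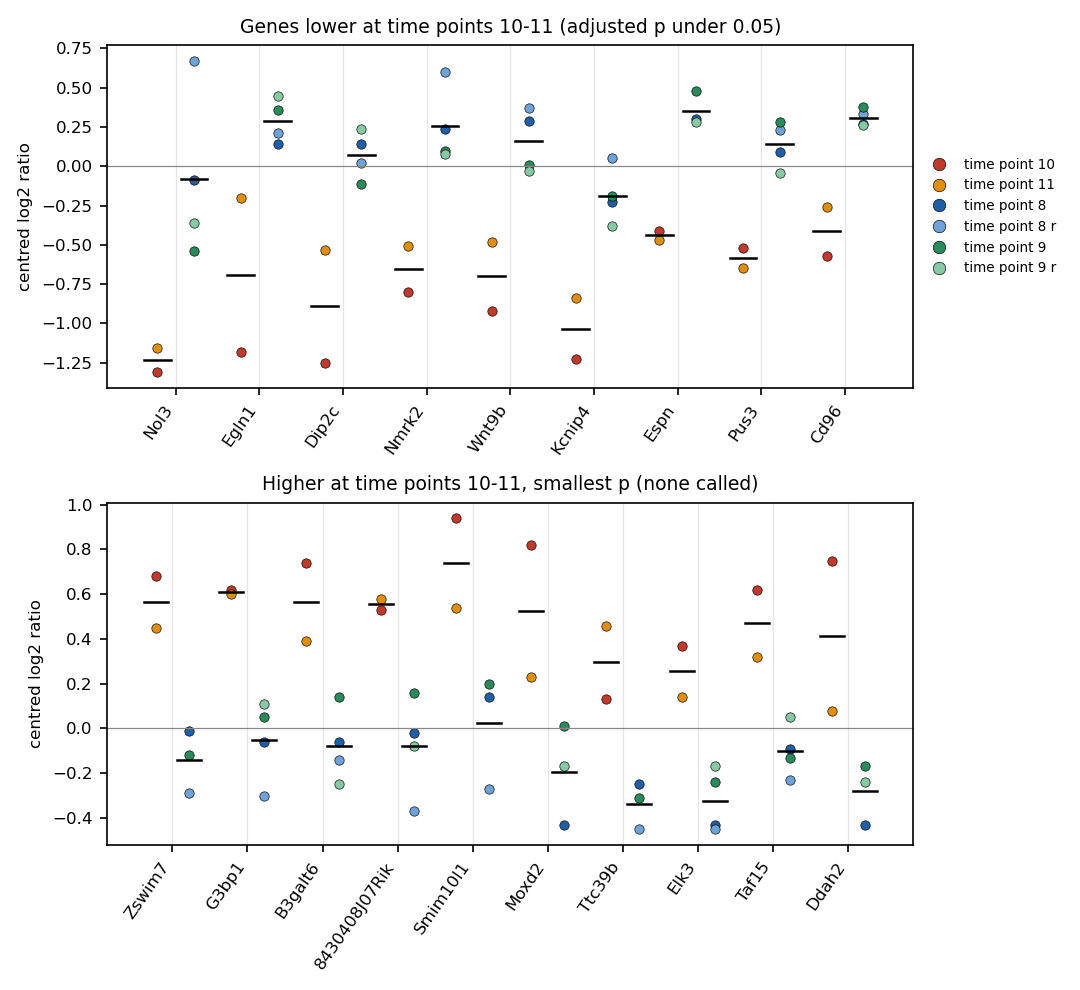
Centred log2 ratios of the 9 called genes (top) and of the 10 higher genes of smallest p (bottom), with time points 10-11 to the left of time points 8-9 for each gene; points are arrays and bars are group means. Naming required both points on the left to lie below all points on the right in the called genes, and above them in the higher genes.

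Probes near the called genes shifted in the same direction. The median difference of the probes within 30 numbers of the gene's own was -0.52 for Nmrk2 and Espn, -0.51 for Wnt9b, -0.50 for Cd96, -0.41 for Egln1, -0.33 for Pus3, -0.32 for Nol3 and -0.30 for Kcnip4, each over 8 to 17 probes. Nmrk2, Espn and Cd96 lay within 1 block, at places 429 to 448, so that each was among the neighbours of the others. Their medians therefore rest on much the same probes. The neighbours of Egln1 (probe 16172) and Pus3 (probe 16212) overlapped in part. Only Dip2c among the 9 had neighbours near the median of all genes, at -0.07 (18 probes). When each value was set against the median of its block, or of its neighbours, limma called 0 genes in either direction, with 319 and 338 at an unadjusted p under 0.05. It also called 0 when the arrays were scaled to a common spread, with 428 at an unadjusted p under 0.05. The differences of the 9 genes were then -1.05 to -0.68 (limma adjusted p 0.0845 to 0.109), against -1.16 to -0.73 before scaling. With block medians they were -1.03 to -0.51 (limma adjusted p 0.321 to 0.324), and against neighbours -0.99 to -0.17 (0.273 to 0.628). The part of place in the other 8 differences, taken gene by gene, was not tested.

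**Figure D3:**
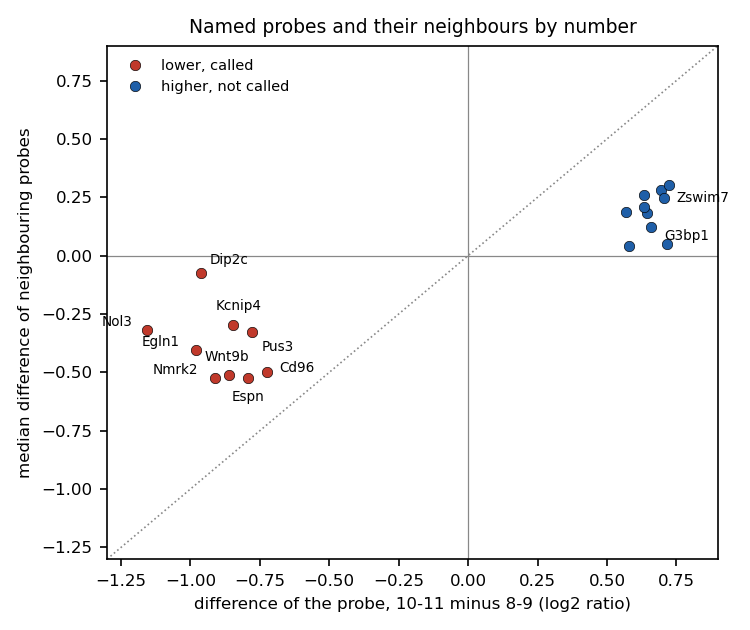
Difference of the probe of each named gene (horizontal axis, log2 ratio, 10-11 minus 8-9) against the median difference of its neighbours within 30 probe numbers (vertical axis); the dotted line marks equality. Nmrk2, Espn, Wnt9b and Cd96 have neighbours at about -0.5, Dip2c at -0.07.

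Among higher genes the smallest p belonged to Zswim7, which acts in homologous recombination, and G3bp1, which nucleates stress granules. Neither passed the test. Zswim7 read 0.68 and 0.45 at time points 10 and 11, against -0.01, -0.29 and -0.12 at time points 8-9 (difference 0.71, SE 0.17; limma adjusted p 0.0750). G3bp1 read 0.62 and 0.60, against -0.06, -0.30, 0.05 and 0.11 (difference 0.66, SE 0.16; limma adjusted p 0.0750). The next 8 were B3galt6, 8430408J07Rik, Smim10l1, Moxd2, Ttc39b, Elk3, Taf15 and Ddah2, at differences of 0.57 to 0.72 and limma adjusted p of 0.0925 to 0.0947. All 10 were chosen among genes that lay above every array of time points 8-9. The neighbours of each had a positive median, of 0.04 to 0.30.

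Taken apart, each array was tested against the same 4 arrays of time points 8-9, whose spread gives the error of a lone array. This error came mostly from the spread shared over genes, and little from a gene's own 4 arrays. Rnf128 and probe 3714, with SDs of 0.055 and 0.85 at time points 8-9, had SEs of 0.21 and 0.25 in these tests. Both tests share these 4 arrays, so their lists are given side by side only. The probes called at time point 10 lay in 29 of the 32 blocks of consecutive probe numbers, with 23 of the 165 in a single block. Those called at time point 11 lay in 23 blocks, with at most 4 of the 46 in any block. How many of all 3381 tested probes lay in the block that held 23 is not given here. It is therefore not shown that this block held more calls than its share. The cause of this distribution at time point 10 was not tested. On the array of time point 10, 137 genes were lower (4.2%) and 28 higher (0.858%), and on that of time point 11, 40 were lower (1.23%) and 6 higher (0.184%). Without the centring of arrays the split was 145 lower and 7 higher at time point 10, and 81 lower and 0 higher at time point 11, since this moved the median difference of all genes to -0.11 and -0.24. The genes called at time point 10 fell to 4 when arrays were scaled to a common spread, the array of time point 10 being the widest. They numbered 48 against block medians and 28 against neighbours. At time point 11 the calls were 40 after scaling, but 2 against block medians and 1 against neighbours. Leaving out the unmarked array (no r in its title) of time point 9 left 12 calls at time point 10 and 0 at time point 11.

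Egln1 and Dip2c fell most at time point 10, with differences of -1.47 (SE 0.21; limma adjusted p 2.13e-07) and -1.32 (SE 0.21; limma adjusted p 4.56e-06). Both were called under all 15 alternatives of this comparison, with adjusted p up to 0.0320 for Egln1 and 0.0421 for Dip2c. The size of the Egln1 difference was -1.03 against its neighbours, smaller than against the array median. At time point 11 neither passed the test, at differences of -0.49 (limma adjusted p 0.361) and -0.60 (limma adjusted p 0.159). Another gene, Mff, the receptor that brings the fission machinery to mitochondria, was chosen after its values were seen, because it too was called under all 3 other scalings (block medians, neighbours and common spread). It read -0.52 at time point 10, against 0.41, 0.69, 0.73 and 0.43 at time points 8-9, and 0.65 at time point 11. Its difference at time point 10 was -1.09 (SE 0.21; limma adjusted p 0.000213), and its adjusted p over the alternatives reached 0.0514, without the unmarked array of time point 9.

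Rnf128, a membrane ubiquitin ligase, was also among the 5 lowest at time point 10. It read -1.44, against -0.15, -0.20, -0.14 and -0.26 at time points 8-9 (difference -1.25, SE 0.21; limma adjusted p 1.40e-05), and 0.05 at time point 11. Nol3 and Pfkl completed these 5. The 5 highest at time point 10 were Ddah2, Moxd2, Ube2c, a ubiquitin-conjugating enzyme of mitosis, Psrc1 and 1810009A15Rik, at differences of 0.94 to 1.03. None of these 5 was called after scaling to a common spread. Psrc1 averages 2 probes that do not have values on the same arrays.

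At time point 11 the lowest gene was Hspa5. It read -1.35, against -0.48 and 1.00 on the arrays of time point 8 and 1.26 and 0.73 on those of 9, while the array of time point 10 read 1.09. The later array lay below all 4 earlier ones, of which the unmarked array of time point 8 stood well apart from the rest. The difference at time point 11 was -1.98 (SE 0.24; limma adjusted p 2.23e-10). This p rests on a spread shared over genes. The 4 earlier arrays of Hspa5 had an SD of 0.77, and with a robust fit, which lets a gene of wide spread keep its own, the adjusted p was 0.592. Over the 14 alternatives it ranged from 2.37e-17 to 0.592 and passed in 10. The difference itself stayed between -2.35 and -1.74. At time point 7, outside the comparison, Hspa5 read -0.66 and -0.97, so that a negative ratio was not particular to time point 11.

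Il1r1, the receptor of interleukin 1, gave nearly the same values as Hspa5. It read -1.53 at time point 11 and 1.06 at time point 10, against -0.68, 0.88, 1.16 and 0.33 at time points 8-9. At time point 7 it read -0.64 and -0.68. Its probe and that of Hspa5 hold the same place, 421, in their blocks of 540 probe numbers, in blocks 19 and 17. The medians of their neighbours were -0.07 and 0.02 at time point 11. The part of the shared place in the likeness of both genes was not tested. Ccdc28b, Stk10, a kinase of lymphocytes, and probe 8919 completed the 5 lowest, at differences of -1.26 to -1.17.

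The highest called genes at time point 11 were probe 3714, Rcn2, 1700125H20Rik, probe 5765 and Ttc39b. Rcn2, a calcium-binding protein of the endoplasmic reticulum, read 0.76 at time point 11, against -0.06, -0.21, -0.19 and -0.04 at time points 8-9. Its difference was 0.89 (SE 0.21; limma adjusted p 0.00569), and it was the 1 gene of this array called under all 3 other scalings. It was not called without the unmarked array of time point 9 (limma adjusted p 0.159), and its adjusted p over the alternatives ranged from 0.00346 to 0.159. Probe 3714 read 1.2 at time point 11, against 1.22, -0.69, -0.12 and -0.46, so that it overlapped the earlier arrays.

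The direct difference of both later arrays was tested as well. At time point 11, 17 genes were higher (0.521%) and 30 lower (0.919%) than at time point 10. Scaling to a common spread gave 3 higher and 15 lower, uncentred arrays 6 higher and 24 lower, and neighbours as the base 6 higher and 6 lower. Without the unmarked array of time point 9 no gene was called. Of every 20 consecutive probe numbers, the first alone made up 10.64% of the called probes, and 3.697% of all probes tested. These 5 called probes were those of Hspa5, Il1r1, Rcn2, Tubb5 and 1810009A15Rik. Against time points 8-9, the first ones made up 8.696% of the called probes at time point 11 and 5.455% at time point 10.

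Ddit3 was lower at time point 11, at -0.35, against 1.04 at time point 10. The 4 arrays of time points 8-9 lay between these, at 0.36, 0.81, 0.74 and 0.31. At time point 7, outside the comparison, Ddit3 read 0.04 and -0.36. The difference of -1.39 (SE 0.27; limma adjusted p 0.000236) was called in 14 of 15 alternatives. The exception was the fit without the unmarked array of time point 9 (limma adjusted p 0.0749), and the range was 6.41e-05 to 0.0749. Hspa5 differed by -2.44 (SE 0.30; limma adjusted p 3.59e-10) and was called in 10 of 14 alternatives, with adjusted p of 9.98e-17 to 0.684. Il1r1 differed by -2.59 (SE 0.31; limma adjusted p 8.02e-11) and was also called in 10 of 14.

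Of the genes higher at time point 11 than at time point 10, Rnf128 differed most, by 1.49 (SE 0.26; limma adjusted p 4.87e-05). Tubb5, a beta tubulin, followed at 1.38 (SE 0.26; limma adjusted p 0.000236), reading 0.00 at time point 11 and -1.38 at time point 10. Probe 206, Pfkl and Nrk, a protein kinase, differed by 1.24, 1.22 and 1.2. The Pfkl value sets different probes against each other, and the 1 probe read on both arrays, 16934, differed by 0.37. Rnf128, Tubb5, probe 206 and Nrk lay below all arrays of time points 8-9 at time point 10. At time point 11 the first 3 of these lay above all of those arrays, while Nrk, at 0.24, lay within their range. On the other side stood 1810009A15Rik at -1.78, Ccdc28b at -1.56 and probe 14451 at -1.5. The genes called under all 3 other scalings were Ddit3, Rnf128, Rcn2, 1810009A15Rik, Klhdc10 and probe 14451. Klhdc10, chosen after its values were seen, read -0.78 at time point 11 and 0.53 at time point 10.

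**Figure D4:**
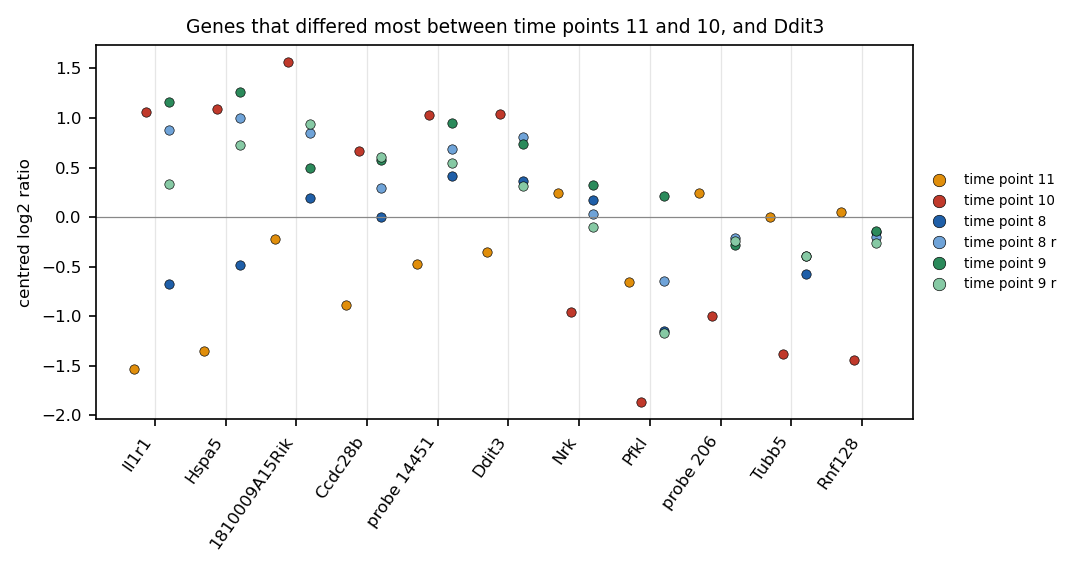
Centred log2 ratios of the 10 genes named for the difference between time points 11 and 10, and of Ddit3; for each gene time point 11 is leftmost, time point 10 next and the 4 arrays of time points 8-9 on the right. Hspa5 and Il1r1 read -1.35 and -1.53 at time point 11, against 1.09 and 1.06 at time point 10.

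Gene lists of pathways were described by counts and medians, without a set test. Of 42 lists, 28 had 5 or more tested members, and all lists together held 551 tested genes. At time point 10, 21 of these were lower (3.81%) and 5 higher (0.907%), near the 4.2% and 0.858% of all genes. At time point 11, 6 were lower (1.09%) and 0 higher, near the 1.23% and 0.184% of all genes. Between time points 10-11 and 8-9 the median of a list lay between -0.14 and 0.17 in 26 of the 28 lists, and lower in glycolysis and in antioxidant enzymes.

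Of the 10 glycolysis genes tested, 7 differed by less than 0 between time points 10-11 and 8-9 (56.5% of all genes did), and 0 were called. Their median was -0.32, against -0.04 over all genes. With arrays centred only, the shift lay at time point 10, where the median was -0.48, whereas it was -0.02 at time point 11. After scaling to a common spread the median at time point 10 was -0.18, and against neighbours it was -0.35. Without the first of every 20 probe numbers, among them the probe of Pgk1, it was -0.46. At time point 10, 3 of the 10 were called lower, Pgk1, Aldoa and Pfkl, against 4.2% of all genes. Pgk1, which makes the first ATP of the pathway, read -1.25 there, against -0.15, 0.02, -0.07 and -0.53 at time points 8-9 (difference -1.07, SE 0.21; limma adjusted p 0.000258), and -0.36 at time point 11. Aldoa, an aldolase, read -0.30, against 0.23, 0.31, 0.57 and 0.36 (difference -0.67; limma adjusted p 0.0402). Scaling to a common spread ended both calls (limma adjusted p 0.267 for Pgk1 and 0.325 for Aldoa), and Aldoa was called in 5 of its 15 alternatives (adjusted p 0.0326 to 0.325).

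Pfkl, a phosphofructokinase, rests on a mix of 2 probes. Probe 16934 alone read -1.87 and -1.5 at time points 10 and 11, against -1.15, -1.22 and -1.17 at time points 8-9, a difference of -0.51. Probe 9381 was blank at time point 10 and read 0.19 at time point 11, against -0.08 and 0.21. The averaged values of Pfkl therefore mix levels of different probes, also in its difference of -1.18 at time point 10, where probe 16934 alone differed by -0.69. Gapdh, Tpi1 and Pgam1 did not pass the test at time point 10, at differences of -0.60, -0.50 and -0.46. Slc16a3 stood at -0.245 and Ldha at -0.05. Pgam2 and Pklr differed the other way at time point 10, at 0.305 and 0.2775, and did not pass either.

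Of the 9 antioxidant genes tested, 7 differed by less than 0 between time points 10-11 and 8-9 (56.5% of all genes), 3 lay below all earlier arrays (15.3% of all genes) and 0 were called. Their median was -0.26, at -0.52 on the array of time point 10 and -0.12 on that of time point 11. After scaling to a common spread the median at time point 10 was -0.38, and against neighbours it was -0.27. Sod1, the cytosolic superoxide dismutase, read -0.91 and -0.47 at time points 10 and 11, against -0.01, 0.22 and -0.08 at time points 8-9. Mt2, a metallothionein that binds zinc and copper, read -0.54 and -0.31, against 0.09, 0.22, 0.10 and 0.17. Both fell at time point 10, by 0.95 (limma adjusted p 0.00212) and 0.69 (limma adjusted p 0.0327), with no call after scaling or against block medians. Gpx4, which reduces lipid peroxides, differed by -0.52 over time points 10-11 without passing the test. Txn1, a thioredoxin, differed the other way at 0.39, likewise not called.

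The ATF4 list was tested in 6 genes, and none was called between time points 10-11 and 8-9. Its median on the array of time point 10 was 0.18, and on that of 11 it was -0.11, and Ddit3 was the 1 member that passed the test, lower at time point 11 with a difference of -0.91 (SE 0.21; limma adjusted p 0.00560). This call held in 11 of 15 alternatives (adjusted p 0.00251 to 0.229). It was lost against block medians (0.147) or neighbours (0.211), with the r mark as a replicate block (0.0881) and without the unmarked array of time point 9 (0.229). Of all genes, 1.23% were called lower at time point 11. Sesn2, which signals amino acid lack to mTORC1, read -0.27 and 0.07 at time points 10 and 11, against 0.28, 0.27, 0.50 and 0.21 at time points 8-9. Cebpb, a transcription factor induced by stress, read 0.00 and -0.24, against -0.47, -0.65, -0.16 and -0.43. Neither passed the test (limma adjusted p 0.229 and 0.377). Phgdh, the first enzyme of serine synthesis, and Slc3a2, a subunit of amino acid exchangers, differed by 0.23 and -0.17 and did not pass. Asns and Glul, the synthetases of asparagine and glutamine, had no value on any array.

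Of the 8 tested genes of folding in the endoplasmic reticulum, Hspa5 was called lower at time point 11 (1.23% of all genes were). P4hb, a protein disulfide isomerase, was called lower at time point 10 (4.2% of all genes were). P4hb read -1.29 and -0.87 at time points 10 and 11, against -0.29, -0.18, -0.58 and -0.56 at time points 8-9. It fell by 0.89 at time point 10 (limma adjusted p 0.00329), a call lost against neighbours (limma adjusted p 0.131) and after scaling to a common spread (0.452, the highest over the alternatives). Creld2, Pdia6 and Sec61b, other genes of the secretory path, differed by -0.19, -0.10 and -0.51 at time point 11 and did not pass. Edem1, which removes misfolded glycoproteins, stood at 0.63 there, also without passing. Of the 4 tested hypoxia genes, 2 were called lower at time point 10 (4.2% of all genes were), Egln1 and Tfrc, the transferrin receptor, and Ldha and Ndrg1 did not pass. Tfrc read -0.67 at time point 10, against -0.11, -0.04 and 0.16 at time points 8-9 (difference -0.67, SE 0.22; limma adjusted p 0.0465). It was called in 3 of 14 alternatives (adjusted p 0.0373 to 0.520), and in none of the 3 other scalings.

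**Figure D5:**
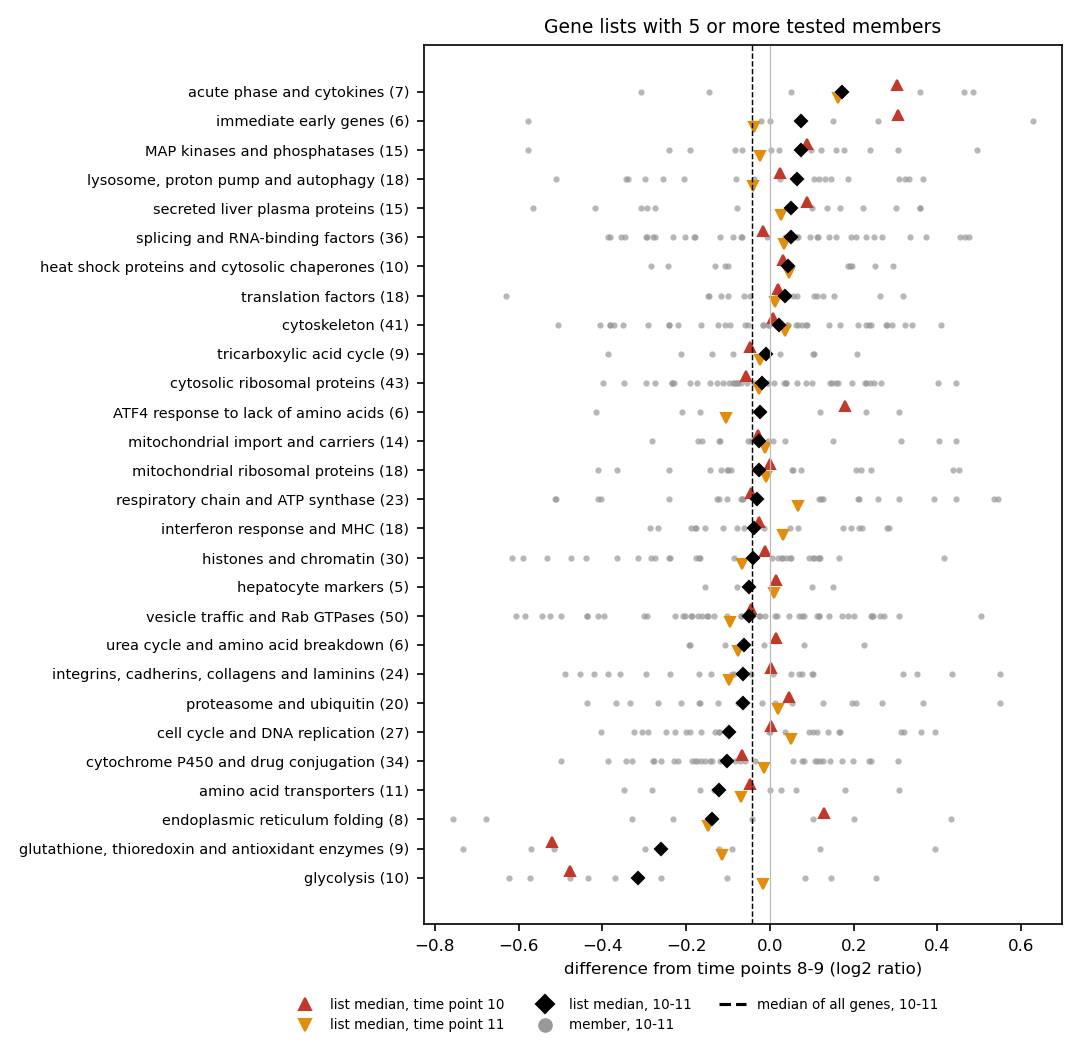
Differences from time points 8-9 (log2 ratio) of the members of each list with 5 or more tested genes, with the list medians for time points 10, 11 and both; the number tested is in brackets. Glycolysis (-0.32) and antioxidant enzymes (-0.26) have the lowest medians for 10-11, and in these values, centred but not scaled, the shift lies at time point 10.

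The other lists had few called members. The 43 cytosolic ribosomal proteins had a median of -0.02 with 0 called on either array, and the 23 genes of the respiratory chain a median of -0.03 with 0 called. The highest median was that of 7 acute phase and cytokine genes, at 0.17. Cxcl1, a chemokine for neutrophils, was the member that rose at time point 10, reading 0.93 there, against 0.03, 0.21, 0.24 and 0.19 at time points 8-9 (difference 0.76; limma adjusted p 0.0147), and 0.33 at time point 11. Myc, the growth-promoting transcription factor, read 0.94 at time point 10, against -0.21, -0.24 and 0.65, and was called (limma adjusted p 0.00813) although 1 earlier array was high too. Of the secreted liver proteins, Apoe, the apolipoprotein of remnant particles, read -1.17 at time point 10, against -0.15, -0.49, -0.35 and -0.24, and fell by 0.86 (limma adjusted p 0.00425). None of Cxcl1, Myc and Apoe was called after scaling to a common spread. The 5 hepatocyte markers had a median of -0.05 with 0 called, and markers of macrophages (3 tested), endothelium (1), stellate cells (3) and bile duct cells (4) had 0 called.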

How the data were processed

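Spotted 2-colour arrays compared RNA of flasks with varied glutamine (Cy5) with RNA of constant flasks (Cy3), per the labels' protocols. The authors deposited 1 table of values, taken as log2 ratios, with 1 column per array and 17280 probes. The base and direction are assumed. The normalization, background correction and rule for blank spots are not given in the sources used here. Probes were named from the platform annotation (14718 with 1 symbol, 1 with several, and 2562 unnamed and kept under their number). For this work each array was centred on its median and probes of a gene were averaged. Genes with both values at time points 10-11 and 3 or more at time points 8-9 were fitted with limma 3.58.1 in R 4.3.3, as 2 groups and, for single arrays, as 3 means (10, 11 and 8-9), where a lone array is assumed to vary like the 4 of time points 8-9. An adjusted p under 0.05 (Benjamini-Hochberg) was called. The fits were tested on simulated data with independent errors, equal in spread on all arrays of a gene, and no effect of place. Such data cannot show how the fits behave where arrays differ in spread or values depend on place. The number of arrays limits the precision, and spot intensities were not used here.

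The members, the gene lists and the tests were chosen with earlier results of these data known. The named genes are the 10 highest and 10 lowest of the main comparison that lay beyond all arrays of 8-9, called ones first and then by smallest p, and the 5 highest and 5 lowest called of each other comparison. They also include up to 4 called members of each list with 5 or more tested genes, otherwise the 2 with the largest difference, and Asns, Glul, Ddit3, Slc38a2, Slc1a5, Sesn2, Cebpb, Jdp2, Alb and Cxcl1. Alternatives changed the centring, the scaling, the filter, the probe averaging, the error model, the arrays used and a block for the r mark. Centring on neighbouring probes and leaving out the first of every 20 probe numbers were chosen after seeing the data. Promoters came from RefSeq tables on GRCm38.p6 by gene symbol, and all 3 genes looked up were matched.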

Additional observations from a re-analysis of the deposited data

Results flagged for a closer look

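The differences of time points 11 and 10 from time points 8-9 differed from each other in 47 genes by limma's direct test. The named ones, given as time point 11 minus time point 10, were Rnf128 at 1.49, Tubb5 at 1.38, probe 206 at 1.24, Pfkl at 1.215 (a mix of 2 probes, of which the 1 with both values differed by 0.37), Nrk at 1.2, Il1r1 at -2.59, Hspa5 at -2.44, 1810009A15Rik at -1.78, Ccdc28b at -1.56 and probe 14451 at -1.5.

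Of 60 named genes with all 4 values at time points 8-9, 3 had 1 array far from the other 3 by Dixon's criterion, and chance flags about 1 in 20. Pola1, a DNA polymerase subunit, had -0.02 on the r array of time point 9, with the next value at -0.22. Rps19, a ribosomal protein, had -0.14 on the unmarked array of time point 9, with the next at 0.10. Slc1a1, a glutamate transporter, had 0.03 on the r array of time point 9, with the next at 0.15.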

How the results depend on the processing

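The main comparison called 9 genes. It called 0 with block medians, common spread, 2 or more values at 8-9, time-point means, the second array of time point 10 included, unmarked arrays only, or neighbours as the base. It called 129 without centring, which moved the median difference of all genes to -0.19, and 84 (15 higher, 69 lower) with the spread pooled over all time points with 2 arrays. With 11, 10, 7, 9 and 11 calls it changed little with values on all 6 arrays, 1 probe per gene, a robust fit, time point as a random block, or without the first of every 20 probe numbers. Leaving out 1 array gave 0 to 165 calls, the largest without time point 11, with 46 without time point 10, 0 without the unmarked array of time point 9 or the r array of time point 8, 1 without the unmarked array of time point 8 and 4 without the r array of time point 9. The 1 call without the unmarked array of time point 8 was a higher gene and not among the 9. The 4 without the r array of time point 9 were all among the 9. At an unadjusted p under 0.05, settings with 0 calls had 250 to 527 genes. With the r mark as a replicate block the calls were 0, 55 (time point 10), 14 (time point 11) and 34 (11 minus 10). The mark is not shown to pair arrays: the differences unmarked minus r at time points 8 and 9 correlated at -0.239 over 3047 genes.

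For time point 10 the 165 calls became 48 with block medians, 4 with common spread and 28 with neighbours, and 12 to 127 with 1 array of 8-9 left out, 12 without the unmarked array of time point 9 and 89 without that of time point 8. For time point 11 the 46 calls became 81 without centring, 2 with block medians and 1 with neighbours, and 0 to 39 with 1 array left out, 0 without the unmarked array of time point 9 and 30 without that of time point 8. For 11 minus 10 the 47 calls became 30 without centring, 15 with block medians, 18 with common spread and 12 with neighbours, and 0 to 44 with 1 array left out. The glycolysis genes lower at time point 10, 3 in number, became 1 with block medians, and 0 with common spread or neighbours, and 0 to 2 with 1 array left out. The 2 lower antioxidant genes became 0 with block medians, common spread or neighbours, 1 with pooled spread or the replicate block, and 0 to 2 with 1 array left out. The cause of these changes was not tested.

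The difference of 10-11 from 8-9 changed sign with the second array of time point 10 included in Pus3 (0.0821), Cd96 (5.04), Shmt1 (-0.11), Cebpb (-0.10) and Ccnb3 (0.13). With 1 array left out it ranged from -1.18 to 0.035 in Pfkl, -0.8625 to 0.0275 in Apoe and -0.32 to 0.01 in Foxa1, with the higher value without time point 10, and from -1.98 to 0.46 in Hspa5 and -0.905 to 0.485 in Ddit3, with the higher value without time point 11. In Shmt1 it ranged from -0.045 (without time point 10) to 0.495. Against neighbours it changed sign in Idh2 (0.015), Nid1 (0.065), Hnf4a (-0.014) and Ddit3 (0.0013), with 1 probe per gene in Dlst (0.09), and in Foxa1 with the r mark as a replicate block or unmarked arrays only (0.09 each).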

Other observations

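Some genes of glutamine and stress biology had too few values for the test. Slc1a5, a glutamine importer, read -0.32 on the unmarked array of time point 8 and -0.02 on that of time point 9, and was blank on the other 4 arrays. Jdp2, a transcription factor of the AP-1 family, read -0.36 at time point 10 and -0.27 at time point 11, against -0.35 on the unmarked array of time point 9 and 0.12 on the r array of time point 8. Alb, serum albumin, read -0.95 at time point 10 and -0.77 at time point 11, against -0.53 on the unmarked array of time point 9. Slc38a2, a transporter of small neutral amino acids, had no value on the 6 arrays.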
